A study of Gallus gallus with 106 samples.

Results

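The comparison described here is that of broiler satellite cells after 48 h of differentiation in hypoxia with the same cells after 48 h in normoxia. It rests on 24 of the 106 samples of the study, which are 6 biological libraries at 1% O2 and 6 at 20% O2, each sequenced in 2 technical replicates that were summed, out of 53 biological libraries in all. Samples were chosen by their labels alone. The cells were wild-type primary satellite cells of the Pectoralis major, the breast muscle of meat-type chickens. Both groups had been grown with serum, chicken embryo extract and basic fibroblast growth factor and were then changed to a differentiation medium with horse serum and embryo extract. The hypoxia group was held in a chamber with 1% O2, 5% CO2 and 94% N2, and the normoxia group in an incubator with 20% O2. The study asked how low oxygen acts on these cells as they differentiate, and the 48 h samples are its last time point. The labels do not say whether the 6 replicates of a group came from separate birds, so the p-values measure the spread between these samples.

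Satellite cells lie beneath the sheath of the muscle fibre and serve as its reserve of precursors. Once activated they divide and express MYOD1, and on leaving the cell cycle they switch on MYOG, fuse, and build sarcomeres from actins, myosins and their partners. When oxygen is scarce, hypoxia-inducible factors (HIF) are stabilised and switch on genes of glucose uptake, glycolysis and blood vessel growth. Low oxygen also alters Notch, Wnt and TGF-beta signals that act on muscle precursors.

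Transcripts were counted by targeted RNA-seq, in which one amplicon for each transcript of a chosen panel is amplified from cDNA and its reads are counted. The 590 transcripts made up 569 genes, of which 453 were read often enough for a test. Levels are given as CPM, read counts per library total after TMM scaling, which can be compared between libraries but not between amplicons. Totals per library were 201593 to 1258867 reads in normoxia at 48 h and 225486 to 980379 in hypoxia, and replicates 2 and 6 were the shallowest in both groups. Differences were tested by edgeR's quasi-likelihood method, and a gene was called at an adjusted p under 0.05 over the 453 genes. In these bulk samples fewer cells of a type and less RNA per cell cannot be told apart.

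Some libraries stood apart from the others of their group. A set of 17 genes, among them SSTR2, HRH2, BMP15, SOST and MC5R, varied together within groups, and the mean log2 CPM of the set left a gap between 6.48 and 7.55 that held no library. In all 17 of the 53 libraries lay above this gap, with 5 of 6 in normoxia at 48 h and 2 of 6 in hypoxia at 48 h. The groups at 48 h thus differed in how many libraries lay above the gap. At 12 h it was 4 of 6 in normoxia and 1 of 6 in hypoxia, and at 24 and 36 h 1 of 6 in each. Whether the score depends on oxygen was not tested. Of the 17 genes only MC5R was called, and 15 had lower levels in hypoxia, with a median log2 change of -0.98. With the side of the gap as a factor in the fit, 98 genes were called, 93 of them shared in the same direction with the 101 genes called without it. Without the libraries above the gap, 1 normoxia and 4 hypoxia libraries were left at 48 h and 22 genes were called. All 22 were among the 101 and had the same direction. They were ACACA, BMP2, COCH, DPT, ENSGALG00000012061, ENSGALG00000027887, ESR1, EXFABP, FABP1, FAP, FGFRL1, FST, GPC3, HK2, IKBKB, MC5R, MSTN, MYH1E, PER3, SLC25A43, SPON2 and TNFRSF1B.

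**Figure D1:**
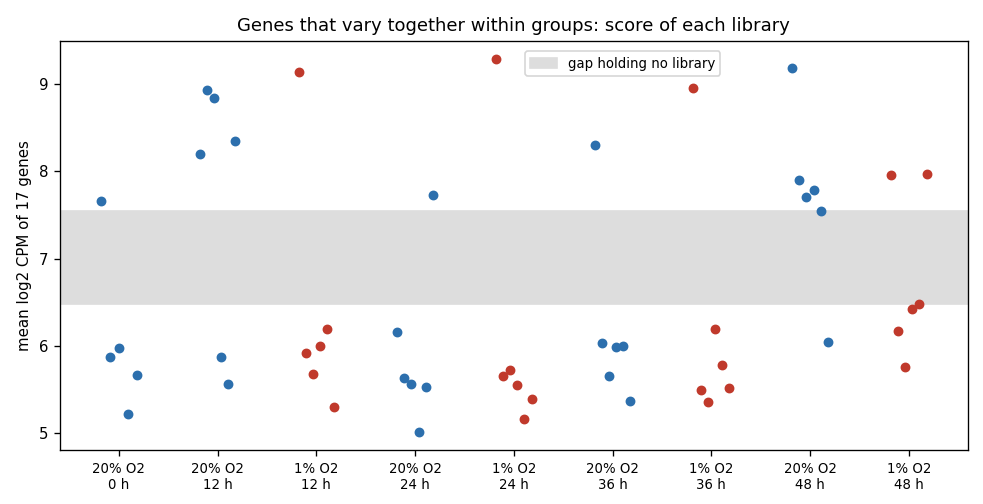
Mean log2 CPM of the 17 genes that vary together within groups (vertical axis) for each of the 53 biological libraries, by oxygen level and time; blue points are 20% O2 and red points 1% O2. The grey band from 6.48 to 7.55 holds no library, and 5 of 6 normoxia and 2 of 6 hypoxia libraries at 48 h lie above it.

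Hypoxia changed 101 of the 453 genes at 48 h, of which 59 were higher and 42 lower. The secreted matrix protein COCH, the glycolytic enzyme HK2 and the lipocalin EXFABP were among the genes that rose most, and myostatin (MSTN) and the matrix protein SPON2 among those that fell most. The called genes were 22.3% of those tested, 13.0% higher and 9.27% lower. The median log2 change of all 453 genes was 0.0083. Of the 101 genes 43 changed by at least 1 on the log2 scale, 24 up and 19 down, and 33 changed by less than 0.5. In 93 of them all 6 hypoxia libraries lay on the same side of the normoxia mean. In 67 of them the libraries of the 2 groups did not overlap, against 70 (15.5%) of all 453 genes. At an unadjusted p under 0.05 there were 134 genes, and DESeq2 called 98. Scaling by the reference genes ended 27 of the 101 calls, among them those of BECN1, CAPN3, CASP6, CAT, CCL5, CPT1A, FABP2, FAP, FGFR4, IGFBP2, IKBKB, MAP1LC3A, MYH1D, PDGFC, RRM2, SFRP1 and SLC25A22.

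**Figure D2:**
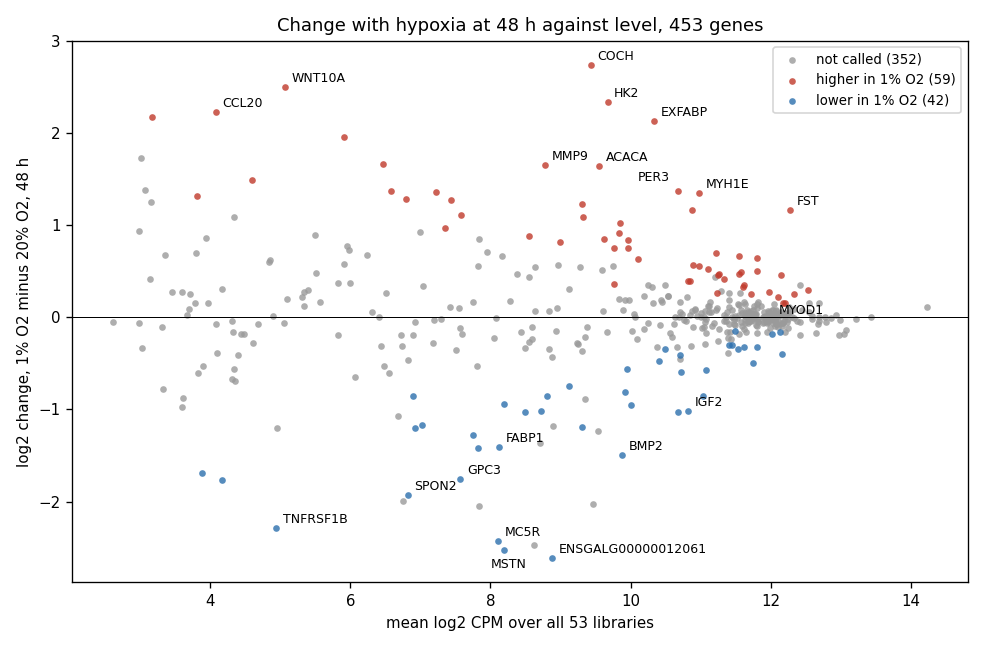
Log2 change of hypoxia against normoxia at 48 h (vertical axis) against the mean log2 CPM over all 53 libraries (horizontal axis) for 453 genes; red points are the 59 genes called higher, blue points the 42 called lower and grey points the other 352. The large changes lie among genes of low and middle level, and the points narrow around 0 at high levels.

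COCH, cochlin, is a secreted matrix protein best known from the inner ear, and lies at chromosome 5, 34450679 to 34467653 (galGal6, 11 exons). Its level was 156 to 389 CPM (median 247) in normoxia and 1312 to 2248 CPM (median 1618) in hypoxia. The groups did not overlap, and the lowest hypoxia library was above 3 times the highest normoxia library. The mean rose from 257 ± 92.1 to 1709.8 ± 357 CPM (SD, n = 6 each, as in all means that follow), a log2 change of 2.73 (SE 0.27, adjusted p = 2.27e-11). HK2 is the hexokinase of muscle that traps glucose in the cell by phosphorylation (chromosome 22, 4050918 to 4066989). Its level was 239 to 360.2 CPM (median 312) in normoxia and 1124 to 2214 CPM (median 1481) in hypoxia, again with all hypoxia libraries above all normoxia libraries. The mean rose from 307 ± 46.8 to 1551 ± 433 CPM, a log2 change of 2.34 (SE 0.27, adjusted p = 1.25e-09). EXFABP, the chicken extracellular fatty acid-binding protein of the lipocalin family (chromosome 17, 865358 to 868425), was at 604 to 929 CPM (median 717) in normoxia and at 2958 to 3419 CPM (median 3257) in hypoxia. The hypoxia libraries lay close together, far above those of normoxia. The mean rose from 736 ± 123 to 3219 ± 169.8 CPM, a log2 change of 2.13 (SE 0.16, adjusted p = 6.24e-16).

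The other genes among the 15 highest were signals, enzymes and regulators. MMP9, a gelatinase that cuts matrix proteins, rose from 93.8 ± 20.1 to 293 ± 57.3 CPM (log2 change 1.66, SE 0.28, adjusted p = 6.4e-06). ACACA, the carboxylase that makes malonyl-CoA for fatty acid synthesis, rose from 549 ± 73.5 to 1716 ± 259.9 CPM (log2 change 1.65, SE 0.21, adjusted p = 1.32e-08). PER3, a period protein of the circadian clock, rose from 1108 ± 138 to 2844 ± 632 CPM (log2 change 1.37, SE 0.17, adjusted p = 9.68e-09). In each of these 3 genes the libraries of the groups did not overlap. RGS4, which speeds the switching off of G proteins, rose from 137 ± 34.9 to 349 ± 90.9 CPM (log2 change 1.36, SE 0.30, adjusted p = 0.000369). MYH1E, a fast skeletal myosin heavy chain, rose from 1227 ± 186 to 3101 ± 251 CPM (log2 change 1.34, SE 0.12, adjusted p = 3.6e-13). Neither gene had a hypoxia library within the normoxia range. ENSGALG00000041298 and ENSGALG00000042129, which the files name by identifier only, had log2 changes of 1.96 and 1.37 (adjusted p = 9.77e-06 and 0.00399).

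For 4 of the highest genes the change rested on few reads. WNT10A, a secreted Wnt ligand, was at 0 to 14.8 CPM (median 10.4) in normoxia and at 16.98 to 80.7 CPM (median 60.1) in hypoxia. The groups did not overlap, and 1 normoxia library held no read (log2 change 2.50, SE 0.45, adjusted p = 1.75e-05). CCL20, a chemokine that attracts lymphocytes and dendritic cells, was at 0 to 19.2 CPM (median 6.57) in normoxia and at 12.7 to 56.5 CPM (median 30.3) in hypoxia, and the groups overlapped (log2 change 2.23, SE 0.52, adjusted p = 0.000672). JAK1, a kinase that relays cytokine receptor signals, was at 3.89 to 16.7 CPM (median 11.0) and 17.1 to 48.3 CPM (median 32.9) (log2 change 1.49, SE 0.36, adjusted p = 0.00108). The highest normoxia library of JAK1 lay just under the lowest hypoxia library. WNT4, another Wnt ligand, had at most 7 reads in any 48 h library (log2 change 2.17, SE 0.73, adjusted p = 0.0223), and the call was lost without any one of hypoxia replicates 1 and 3 and normoxia replicates 3 and 5 (adjusted p up to 0.0895).

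Among the genes that fell, ENSGALG00000012061 had the largest change (chromosome 7, 28189930 to 28201856, 9 exons). It was at 727 to 1081 CPM (median 839.6) in normoxia and at 101 to 220.1 CPM (median 129.5) in hypoxia. No library of one group reached the range of the other, and the mean fell from 871 ± 124 to 144 ± 41.9 CPM, a log2 change of -2.61 (SE 0.20, adjusted p = 1.16e-15). MSTN, myostatin, the TGF-beta family ligand that limits muscle growth (chromosome 7, 252348 to 257840), was at 114 to 195 CPM (median 152) in normoxia and at 15.9 to 41.5 CPM (median 25.1) in hypoxia. Every hypoxia library was well below the lowest normoxia library. The mean fell from 151 ± 31.3 to 27.0 ± 11.3 CPM, a log2 change of -2.53 (SE 0.32, adjusted p = 9.68e-09). SPON2, spondin 2, a secreted matrix protein (chromosome 4, 84891894 to 84898886), was at 297 to 394 CPM (median 352) in normoxia and at 72.2 to 121 CPM (median 88.7) in hypoxia. The mean fell from 347 ± 36.2 to 91.0 ± 16.2 CPM, with no overlap of the groups (log2 change -1.93, SE 0.21, adjusted p = 3.84e-10).

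GPC3, a cell surface heparan sulfate proteoglycan, fell from 149 ± 42.0 to 42.8 ± 19.5 CPM (log2 change -1.75, SE 0.23, adjusted p = 2e-08). BMP2, a bone morphogenetic protein, fell from 1379 ± 161 to 489.9 ± 159.9 CPM (log2 change -1.49, SE 0.25, adjusted p = 6.59e-06). Neither gene had overlapping groups. EDNRB, the type B endothelin receptor, fell from 157 ± 39.1 to 59.0 ± 13.1 CPM (log2 change -1.42, SE 0.24, adjusted p = 7.96e-06). FABP1, a fatty acid-binding protein best known from liver, fell from 639 ± 34.6 to 239.7 ± 61.6 CPM (log2 change -1.41, SE 0.19, adjusted p = 2.74e-08). Both were lower in each hypoxia library than in any normoxia library. MC5R, a melanocortin receptor, fell from 699.9 ± 331 to 133 ± 85.1 CPM (log2 change -2.43, SE 0.66, adjusted p = 0.0036). It belongs to the 17 genes that vary together. Its within-group correlation with the mean of the 6 genes used to find the set, MC5R among them, was 0.93 as a description over the 53 libraries. Its log2 change was -1.52 with the side of the gap in the fit (edgeR adjusted p = 0.00121) and -2.09 without the libraries above the gap. MC5R itself helped to place the gap, so neither value is independent of its level.

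TNFRSF1B, a receptor for tumour necrosis factor, was at 11.5 to 33.6 CPM (median 18.3) in normoxia and at 0 to 12.7 CPM (median 3.43) in hypoxia (log2 change -2.29, SE 0.41, adjusted p = 1.54e-05). Only hypoxia replicate 2, one of the shallow libraries, reached the normoxia range. ALPL, tissue-nonspecific alkaline phosphatase, fell from 14.2 ± 5.30 to 4.53 ± 5.03 CPM (log2 change -1.76, SE 0.52, adjusted p = 0.00865). CCL5, a chemokine that attracts T cells, had at most 12 reads in any 48 h library (log2 change -1.69, SE 0.62, adjusted p = 0.0403). Its call was lost without any one of 7 of the 12 libraries, hypoxia replicates 1, 4 and 6 and normoxia replicates 1, 3, 4 and 5 (adjusted p up to 0.112).

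**Figure D3:**
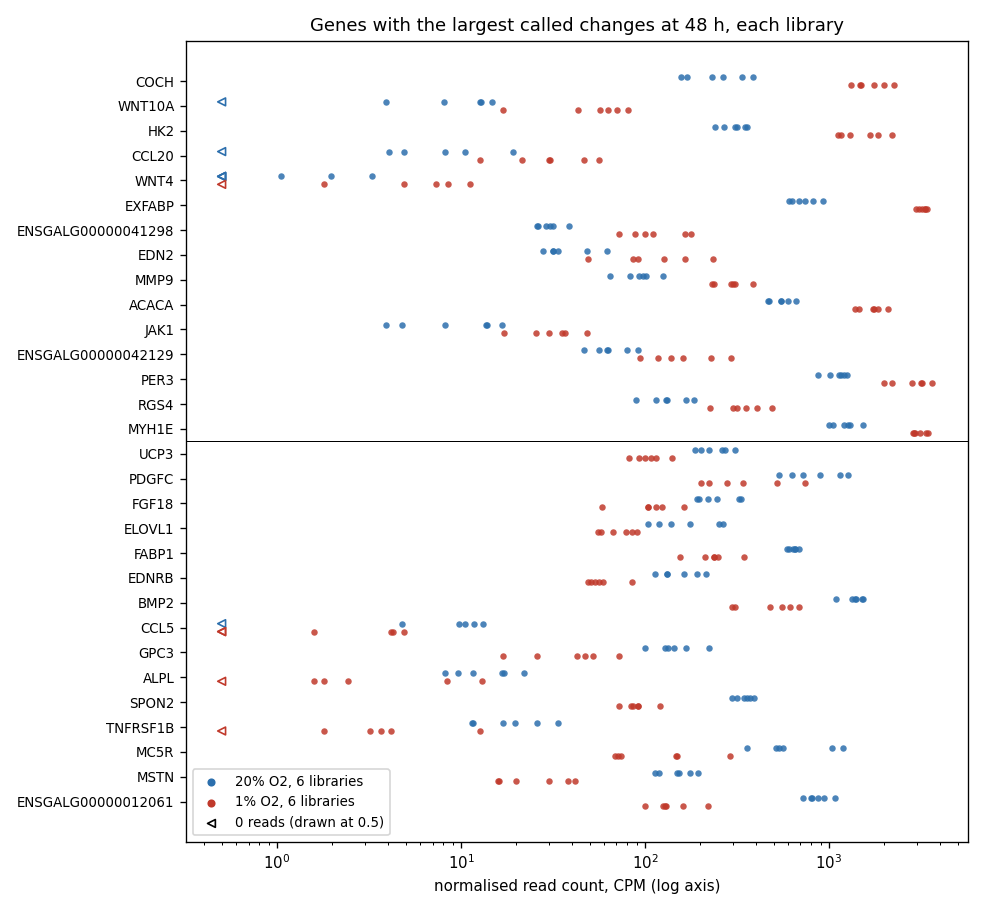
Normalised read count (CPM, log axis) of each of the 6 normoxia (blue) and 6 hypoxia (red) libraries at 48 h for the 15 genes with the highest and the 15 with the lowest called log2 change, divided by a line; open triangles at the left mark libraries with 0 reads. COCH, HK2, EXFABP, MSTN and SPON2 show 2 groups of points with no overlap, while WNT4 and CCL5 overlap near 0.

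Of 6 satellite cell identity genes 2 rose, none fell and 4 did not pass (33.3% called, against 22.3% of all tested genes). Their median log2 change was 0.22 against 0.0083 for all genes. PAX3, a paired-box factor of muscle precursors, rose from 403 ± 74.4 to 762 ± 216 CPM (log2 change 0.92, SE 0.24, adjusted p = 0.00207). NCAM1, an adhesion molecule of myoblasts, rose from 562 ± 32.8 to 719 ± 53.7 CPM (log2 change 0.36, SE 0.086, adjusted p = 0.00101). PAX7, the factor that marks satellite cells, was at 8648 ± 2368 CPM in normoxia and 7637 ± 1305 CPM in hypoxia, and its groups overlapped (log2 change -0.18, SE 0.15, adjusted p = 0.467).

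None of the 7 myogenic regulatory and MEF2 factors passed the test (against 22.3% of all tested genes), and their median log2 change was -0.0031. In edgeR 0 of the 7 had an unadjusted p under 0.05, and DESeq2 called 0. MYOD1, which commits cells to the muscle lineage, was at 3196 to 4546 CPM (median 4173) in normoxia and 3294 to 4544 CPM (median 4113) in hypoxia (log2 change -0.022, SE 0.094, adjusted p = 0.94). MYOG, myogenin, which drives the differentiation step, was at 3604 to 5297 CPM (median 4772) and 3824 to 5302 CPM (median 4949.8) (log2 change 0.045, SE 0.095, adjusted p = 0.848). The ranges of both genes nearly coincided. MYOD1, MYOG and MYF5 had normoxia means between 3000 and 6000 CPM, where 11.9% of the tested genes were called. Between 300 and 3000 CPM the share was 32.6%. MYF5 (log2 change 0.35, SE 0.21, adjusted p = 0.258), MYF6 (log2 change 0.12, SE 0.65, adjusted p = 0.965) and MEF2D (log2 change -0.53, SE 0.45, adjusted p = 0.486) did not pass either. MEF2D had at most 18 reads in a 48 h library.

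Of 4 inhibitors of myogenesis HEY1 and BHLHE40 rose, MSTN fell and TGFB1 did not pass (75% called, against 22.3% of all tested genes). HEY1, a transcriptional repressor downstream of Notch, was at 293 to 408 CPM (median 314) in normoxia and 443 to 872 CPM (median 544) in hypoxia, without overlap (log2 change 0.85, SE 0.21, adjusted p = 0.00124). BHLHE40, a repressor that HIF induces and that also takes part in the circadian clock, rose from 2228 ± 90.4 to 2963 ± 210.0 CPM (log2 change 0.41, SE 0.068, adjusted p = 4.51e-06). Each of its hypoxia libraries was above each normoxia library.

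Among 13 contractile and calcium genes were 3 that rose and 2 that fell, and 8 did not pass (38.5% called, against 22.3% of all tested genes). Their median log2 change was 0.15. MYH1E was at 1006 to 1524 CPM (median 1237) in normoxia and at 2879.6 to 3434 CPM (median 3013) in hypoxia. Its neighbour MYH1F, another myosin heavy chain of the same cluster, was at 92.7 to 149.6 CPM (median 124) and 46.7 to 100.2 CPM (median 61.4) and fell (log2 change -0.86, SE 0.18, adjusted p = 0.000147). MYH1D, a further member, had a log2 change of -0.18 (SE 0.069, adjusted p = 0.049), and this call was lost without any one of 8 of the 12 libraries (hypoxia replicates 1, 2, 3, 5 and 6 and normoxia replicates 3, 4 and 6). The myosin genes are close copies of one another, so the assignment of reads among them is uncertain. PVALB, parvalbumin, a calcium buffer of fast fibres, rose from 87.2 ± 20.8 to 211 ± 73.8 CPM (log2 change 1.28, SE 0.25, adjusted p = 4.97e-05). CAPN3, the muscle calpain, rose from 157 ± 38.2 to 309.7 ± 77.8 CPM (log2 change 0.97, SE 0.31, adjusted p = 0.0167). This call was lost with reference-gene scaling, with technical replicate 2 alone, without replicate 4 or 6 of both groups, and without the libraries of replicates 2 and 6 together. The Z-disc protein gene LDB3 did not pass (log2 change -0.16, SE 0.12, adjusted p = 0.425), and ACTA1 and DES had log2 changes of 0.010 and 0.019.

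Of 6 HIF pathway genes BHLHE40 rose and 5 did not pass (median log2 change 0.048). This is 16.7% called, near the 22.3% of all tested genes, and the glycolysis list had the same share. HIF1A, which codes for the oxygen-regulated subunit and is controlled mainly at the protein level, was at 3793 to 4538 CPM (median 3969.6) in normoxia and 3212 to 4202 CPM (median 3497) in hypoxia (log2 change -0.16, SE 0.072, adjusted p = 0.126). VEGFA, the vessel growth factor, was at 4242 to 4793 CPM (median 4511) and 4125 to 4835 CPM (median 4649.6) (log2 change 0.022, SE 0.054, adjusted p = 0.868). PDK1, a kinase that inhibits pyruvate dehydrogenase, did not pass (log2 change -0.080, SE 0.071, adjusted p = 0.515). HIF1A, VEGFA and PDK1 had normoxia means between 3000 and 6000 CPM, where 11.9% of the tested genes were called. Between 300 and 3000 CPM the share was 32.6%. SLC2A1, the basal glucose transporter, had a log2 change of 0.26 (SE 0.10, adjusted p = 0.0681), and its groups overlapped. Of 12 genes of glycolysis and glucose uptake HK2 rose, FBP1 fell and 10 did not pass (median log2 change 0.016). SLC2A14, of the same gene family as SLC2A1 but outside the list, was named after its value was seen. It was called higher at 48 h and at 12, 24 and 36 h. FBP1, a bisphosphatase that works against glycolysis, was at 428 to 731 CPM (median 535) in normoxia and 243 to 405 CPM (median 290.5) in hypoxia, without overlap (log2 change -0.86, SE 0.20, adjusted p = 0.000637).

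Of 14 genes of mitochondria and oxidative metabolism 3 rose, 2 fell and 9 did not pass (median log2 change -0.011). This is 35.7% called, against 22.3% of all tested genes. SIRT3, the mitochondrial deacetylase, rose from 716 ± 115 to 1286 ± 219.6 CPM (log2 change 0.84, SE 0.18, adjusted p = 0.000156). NRF1, a factor that drives nuclear genes of the respiratory chain, rose from 1482 ± 146 to 2197 ± 383 CPM (log2 change 0.57, SE 0.16, adjusted p = 0.00583). CPT1A, which carries long-chain fatty acids towards oxidation, rose from 4765 ± 151 to 5837 ± 216 CPM (log2 change 0.29, SE 0.062, adjusted p = 0.000196). These 3 had no overlap between groups. UCP3, the uncoupling protein of muscle, was at 187 to 307 CPM (median 242) in normoxia and 82.0 to 140.3 CPM (median 104) in hypoxia and fell (log2 change -1.17, SE 0.31, adjusted p = 0.00331). PPARA, a nuclear receptor that drives fatty acid oxidation, fell from 1514 ± 89.9 to 1088 ± 202 CPM (log2 change -0.47, SE 0.13, adjusted p = 0.00305). Both of the following families were added after the panel's names were seen. Of 7 sirtuins SIRT3 and SIRT7 rose (28.6% called), and of 24 carriers of the SLC25 family 3 rose and 1 fell (16.7% called). Both shares were near the 22.3% of all tested genes. SLC25A30, a carrier of the inner mitochondrial membrane, rose from 2275 ± 168 to 3678 ± 499 CPM (log2 change 0.70, SE 0.11, adjusted p = 2.04e-06).

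The TGF-beta and BMP list held the gene with the smallest adjusted p, FST. Of its 11 members 2 rose, 3 fell and 6 did not pass, with a median log2 change of 0.067 (45.5% called, against 22.3% of all tested genes). FST, follistatin, a secreted trap for myostatin and activins (chromosome Z, 16072541 to 16079179), was at 2541 to 3161 CPM (median 2768) in normoxia and 5436 to 7160.2 CPM (median 6149) in hypoxia. The lowest hypoxia library was far above the highest normoxia library. The mean rose from 2806 ± 263 to 6294 ± 640.2 CPM, a log2 change of 1.17 (SE 0.081, adjusted p = 1.27e-16). TLL1, a protease of the tolloid family, whose members in mouse cut the propeptide that holds myostatin inactive, was at 863 to 1361 CPM (median 1026) and 385 to 816 CPM (median 478) and fell (log2 change -0.96, SE 0.20, adjusted p = 0.000143). BMP4, a bone morphogenetic protein, rose from 3707 ± 247 to 4458 ± 576 CPM (log2 change 0.27, SE 0.089, adjusted p = 0.0204), a call lost without any one of hypoxia replicates 3 and 5 and normoxia replicate 5.

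The IGF and insulin list of 10 genes held 1 that rose and 1 that fell (8 did not pass, median log2 change -0.011). This is 20% called, near the 22.3% of all tested genes. IGF2, insulin-like growth factor 2, an autocrine signal of differentiating myoblasts, was at 3357 to 3799 CPM (median 3657) in normoxia and 1292 to 2382 CPM (median 1754) in hypoxia. Its groups did not overlap, and the mean fell from 3601 ± 187 to 1794 ± 415 CPM (log2 change -1.01, SE 0.26, adjusted p = 0.00189). IGFBP2, a protein that binds IGFs, rose from 2074 ± 112 to 2855 ± 203 CPM (log2 change 0.46, SE 0.13, adjusted p = 0.00566). IGF1 did not pass (log2 change -0.35, SE 0.27, adjusted p = 0.442). Of 9 FGF and PDGF genes 2 rose, 2 fell and 5 did not pass (median 0.079, 44.4% called, against 22.3% of all tested genes). FGFRL1, an FGF receptor without the kinase domain, was at 2828 to 3083 CPM (median 2937) and 4388 to 4894 CPM (median 4599) and rose (log2 change 0.65, SE 0.079, adjusted p = 6.28e-09). FGFR4, an FGF receptor of muscle precursors, rose from 2612 ± 210.2 to 3685 ± 407 CPM (log2 change 0.50, SE 0.12, adjusted p = 0.000938). The other 4 receptors of the list did not pass. Of its 3 ligands FGF18 fell from 253 ± 62.8 to 111 ± 34.1 CPM (log2 change -1.20, SE 0.28, adjusted p = 0.000707), PDGFC fell from 868 ± 293 to 384 ± 208 CPM (log2 change -1.19, SE 0.36, adjusted p = 0.00931), and VEGFA did not pass.

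Of 6 Wnt genes on the list 3 rose, 1 fell and 2 did not pass (median log2 change 0.40). This is 66.7% called, against 22.3% of all tested genes. WNT5B, a ligand of the non-canonical branch, rose from 320.4 ± 47.0 to 540.1 ± 81.0 CPM (log2 change 0.76, SE 0.20, adjusted p = 0.0034). WNT5A, its close relative, was at 2325 to 2998 CPM (median 2464) in normoxia and 1377 to 2194 CPM (median 1627) in hypoxia and fell (log2 change -0.57, SE 0.11, adjusted p = 4.06e-05). Both had groups without overlap, in opposite directions. SFRP1, a secreted antagonist that binds Wnt ligands, rose from 247 ± 63.2 to 436 ± 139 CPM (log2 change 0.82, SE 0.28, adjusted p = 0.024), and the call was lost without any one of hypoxia replicates 4 and 6 and normoxia replicates 3, 4 and 5. SFRP5, a relative of SFRP1 outside the list and named after its value was seen, rose from 821 ± 98.9 to 1847 ± 390.3 CPM (log2 change 1.16, SE 0.19, adjusted p = 3.15e-06). WNT10A, described above, was not on the list. Of 3 Notch genes HEY1 rose (33.3% called), and NOTCH1 and NOTCH2 had log2 changes of -0.27 and 0.076 and did not pass.

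Of 31 genes of fatty acid uptake, binding, synthesis and elongation 4 rose, 2 fell and 25 did not pass, which is 19.4% called, near the 22.3% of all tested genes, and their median log2 change was 0.049. ACACA was at 468 to 661 CPM (median 548) in normoxia and 1384 to 2093 CPM (median 1752) in hypoxia. SCD, the desaturase that makes oleic acid, rose from 1957 ± 153 to 2802 ± 446 CPM (log2 change 0.52, SE 0.11, adjusted p = 0.00013). FASN and ACLY, which act beside ACACA in the synthesis of fatty acids, had log2 changes of 0.10 and 0.35 and did not pass. PNPLA2, the lipase that starts the breakdown of stored fat, rose from 2932 ± 240.5 to 3729.7 ± 306 CPM (log2 change 0.35, SE 0.081, adjusted p = 0.000678). FABP2, a fatty acid-binding protein best known from intestine, rose from 1732 ± 159 to 2279 ± 403 CPM (log2 change 0.40, SE 0.13, adjusted p = 0.015), a call lost without hypoxia replicate 3. ELOVL1, an elongase of very long chain fatty acids, fell from 176 ± 68.6 to 72.4 ± 14.6 CPM (log2 change -1.28, SE 0.33, adjusted p = 0.00207).

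Among 5 lipocalin and retinoid genes EXFABP and RBP4A rose and 3 did not pass (40% called, against 22.3% of all tested genes). RBP4A, a plasma carrier of retinol, rose from 963 ± 153 to 1624 ± 287 CPM (log2 change 0.76, SE 0.15, adjusted p = 0.000128), with no overlap between groups. PTGDS, a lipocalin that makes prostaglandin D2, did not pass (log2 change -0.32, SE 0.16, adjusted p = 0.168). Of 6 genes of cholesterol and apolipoproteins only APOA1, the main protein of high-density lipoprotein, fell (log2 change -0.34, SE 0.11, adjusted p = 0.0184). That call was lost without normoxia replicate 3 or 4. The list had 16.7% called, near the 22.3% of all tested genes.

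The matrix list of 23 genes had 3 that rose, 5 that fell and a median log2 change of 0.0074 (15 did not pass). This is 34.8% called, against 22.3% of all tested genes. Besides COCH and MMP9, THBS1, thrombospondin 1, an adhesive matrix protein, rose from 2178 ± 171 to 3006 ± 188 CPM (log2 change 0.47, SE 0.058, adjusted p = 9.68e-09). Besides SPON2, GPC3 and ALPL, DPT, dermatopontin, a small matrix protein, was at 2803 to 3068 CPM (median 2868) in normoxia and 1129.8 to 1981 CPM (median 1288) in hypoxia. It fell with no overlap of the groups (log2 change -1.03, SE 0.16, adjusted p = 8.2e-07). TAGLN, transgelin, an actin-binding protein of smooth muscle, fell from 4902 ± 395 to 3730.2 ± 530.5 CPM (log2 change -0.40, SE 0.081, adjusted p = 0.000101). The structural collagens did not pass: COL1A1, COL3A1, COL4A1, COL5A1, COL6A1, COL6A3 and COL12A1 had log2 changes between -0.028 and 0.11.

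Of 12 cytokine, chemokine and receptor genes 2 rose, 3 fell and 7 did not pass (median log2 change -0.060). This is 41.7% called, against 22.3% of all tested genes. LITAF, a factor of lysosomes and inflammatory signalling, rose from 313 ± 47.0 to 575 ± 131 CPM (log2 change 0.88, SE 0.17, adjusted p = 8.1e-05). IL18, an inflammatory cytokine, fell from 2440.2 ± 166 to 1624 ± 229.7 CPM (log2 change -0.59, SE 0.14, adjusted p = 0.000678). IL6, a cytokine that muscle cells secrete, was at 851 to 1334 CPM (median 991) in normoxia and 815 to 1355 CPM (median 974) in hypoxia (log2 change 0.0021, SE 0.15, adjusted p = 0.994). Of 8 vasoactive genes EDN2 rose, EDNRB fell and 6 did not pass (25% called, near the 22.3% of all tested genes). EDN2, endothelin 2, a vasoconstrictor peptide, was at 28.0 to 62.2 CPM (median 32.7) and 48.9 to 233 CPM (median 109.6), with overlap (log2 change 1.67, SE 0.35, adjusted p = 0.000196). Of 14 nuclear and hormone receptors ESR1 rose, PPARA and MC5R fell and 11 did not pass. This is 21.4% called, near the 22.3% of all tested genes. ESR1, oestrogen receptor alpha, was at 369 to 500.1 CPM (median 442) in normoxia and 726 to 1188 CPM (median 979) in hypoxia, without overlap (log2 change 1.08, SE 0.14, adjusted p = 2.51e-08).

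Of 6 cell cycle genes 1 was called, which is 16.7% and near the 22.3% of all tested genes. It was RRM2, a subunit of the enzyme that makes deoxynucleotides, which rose (log2 change 0.15, SE 0.053, adjusted p = 0.0301), and the call was lost without any one of hypoxia replicate 2 and normoxia replicates 1, 2, 3 and 5, and in DESeq2. PCNA, the clamp of the replication fork, was at 5937 to 6901 CPM (median 6248) in normoxia and 5978 to 6787 CPM (median 6202) in hypoxia (log2 change 0.0078, SE 0.059, adjusted p = 0.974). CCND1, cyclin D1 (log2 change 0.070, SE 0.049, adjusted p = 0.375), and CDKN1A, the inhibitor p21 (log2 change -0.17, SE 0.14, adjusted p = 0.468), did not pass. The normoxia mean of CCND1 lay between 3000 and 6000 CPM, where 11.9% of the tested genes were called. That of PCNA lay above 6000 CPM, where 0 of 18 were called. Of 6 immediate early and MAPK genes EGR1, a growth-responsive zinc finger factor, fell from 3021 ± 142 to 2412 ± 309 CPM (log2 change -0.32, SE 0.071, adjusted p = 0.000407). EGR1 was the only called member of that list (16.7%, near the 22.3% of all tested genes). Its relative EGR3, which is not on that list, fell from 883 ± 152 to 501 ± 100.4 CPM (log2 change -0.81, SE 0.16, adjusted p = 5.22e-05).

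Of 6 genes of autophagy, proteolysis and ER stress CAPN3 and SESN1 rose and MAP1LC3A and BECN1 fell (66.7% called, against 22.3% of all tested genes). SESN1, a sestrin that restrains mTOR signalling, rose from 2213 ± 206 to 3241 ± 399.9 CPM (log2 change 0.55, SE 0.10, adjusted p = 1.2e-05). MAP1LC3A (log2 change -0.14, SE 0.054, adjusted p = 0.0488) and BECN1 (log2 change -0.41, SE 0.15, adjusted p = 0.0488), both of the autophagosome pathway, lost the call without any one of 9 and 7 of the 12 libraries. Among the antioxidant genes CAT, catalase, rose (log2 change 0.15, SE 0.051, adjusted p = 0.024), and among the apoptosis genes CASP6, an executioner caspase, fell (log2 change -0.31, SE 0.11, adjusted p = 0.0426). These were 1 of 6 antioxidant genes (16.7%) and 1 of 5 apoptosis genes (20%), near the 22.3% of all tested genes. Leaving out any one of 3 libraries ended the call of CAT and any one of 7 that of CASP6. Counting the main fit, CAT was called under 14 of the 30 settings described below and CASP6 under 15. None of the 7 reference genes passed (0 at an unadjusted p under 0.05 in edgeR and 0 called by DESeq2), and their log2 changes ran from -0.046 for ACTB to 0.082 for GUSB.

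**Figure D4:**
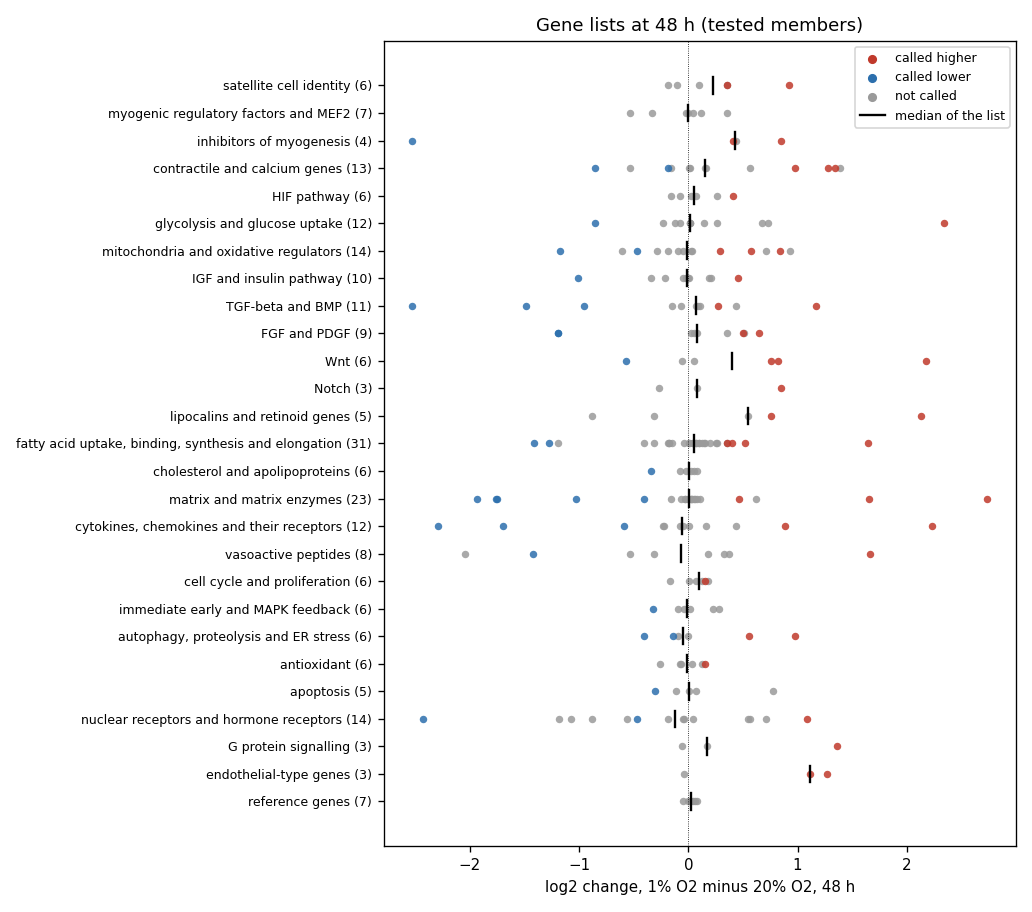
Log2 change of hypoxia against normoxia at 48 h for each tested member of 27 gene lists (number tested in brackets); red points were called higher, blue points called lower and grey points not called, and the black bar is the median of the list. The reference genes and the myogenic regulatory factors hold no called gene, while the TGF-beta and BMP, matrix and cytokine lists hold called genes on both sides of 0.

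Markers of the labelled cell type were present in every library. The summed level of 8 satellite cell and myoblast markers was 20175 to 30772 CPM in normoxia and 23692 to 33047 CPM in hypoxia. Transcripts listed as markers of other cells were read too. Levels cannot be compared between amplicons, so sums of markers do not measure how many cells of a type were present. Among the fibroblast markers VIM alone had a normoxia mean of 10978 CPM. The 7 fibroblast markers summed to 28849 to 33067 CPM in normoxia and 29330 to 31412 CPM in hypoxia. Only DPT was called, 1 of the 6 tested, against 22.3% of all tested genes. The 6 adipogenic markers summed to 16361 to 20954 and 17278 to 20749 CPM, with none called in edgeR or DESeq2 and 0 at an unadjusted p under 0.05. The 2 smooth muscle markers summed to 8009 to 9509 and 7304 to 8523 CPM, and 1 of the 2 tested, TAGLN, fell. The other, ACTA2, did not pass (log2 change 0.079, edgeR adjusted p = 0.555). The endothelial markers were few in reads. Of the 4 in the panel 3 were tested, and 2 of these were called (66.7%, against 22.3% of all tested genes). VWF, von Willebrand factor, rose from 60.7 ± 23.7 to 130.0 ± 41.6 CPM (log2 change 1.11, SE 0.30, adjusted p = 0.0031). ENG, endoglin, a TGF-beta co-receptor of endothelium, rose from 77.4 ± 23.4 to 190.2 ± 102 CPM (log2 change 1.27, SE 0.40, adjusted p = 0.0135), a call lost without hypoxia replicate 6. The sum of the 4 endothelial markers was 95.4 to 245 CPM in normoxia and 214 to 570 CPM in hypoxia. CDH5 did not pass (log2 change -0.040, SE 0.51, adjusted p = 0.988), and PECAM1 was not tested, with at most 5 reads in a 48 h library. The 2 immune markers summed to 19.2 to 214 CPM in normoxia and 10.5 to 159.7 CPM in hypoxia. Of these CD14, like the adipogenic marker THRSP, belongs to the 17 genes that vary together within groups. CD14, a monocyte marker, had a mean of 71.7 CPM in normoxia and 66.5 CPM in hypoxia and did not pass (log2 change -0.19, adjusted p = 0.954), and PTPRC, the pan-leukocyte marker, had at most 2 reads in a 48 h library. The part of other cell types in the changes of the matrix, vasoactive and endothelial genes was not tested.

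Set beside the earlier times, which use other libraries, the 48 h effect shared the most calls with that at 36 h. At 12 h hypoxia changed 81 genes (17.9% of those tested, 7.51% higher and 10.4% lower), at 24 h 84 (18.5%, 9.93% higher and 8.61% lower) and at 36 h 74 (16.3%, 6.18% higher and 10.2% lower). Of the 101 genes called at 48 h, 35 were called in the same direction at 12 h, which is 34.7% of the 48 h genes and 43.2% of the 12 h genes. At 24 h 50 were shared, 49.5% and 59.5% of the lists, and at 36 h 52, 51.5% and 70.3%. EGR1, HEY1 and ENSGALG00000025996 had the opposite direction at 12 h and SESN1 at 24 h. At all 4 times 23 genes were called the same way. COCH, EXFABP, FST, HK2, MYH1E, PVALB, RBP4A, NCAM1, BHLHE40, THBS1, IL10RB and SLC2A14 were higher at each time. MSTN, TLL1, IGF2, DPT, GPC3, ALPL, TNFRSF1B, WNT5A, MAPK11, MDH2 and ENSGALG00000012061 were lower at each time.

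The effect at 48 h differed from the mean of the effects at 12, 24 and 36 h in 22 genes (4.86% of those tested), of which 17 were more positive (3.75%) and 5 more negative (1.10%) at 48 h. FST had log2 changes of 0.28, 0.90 and 0.61 at 12, 24 and 36 h and of 1.17 at 48 h, and the difference was 0.57 (SE 0.092, adjusted p = 4.87e-05). HK2 went from 0.81, 1.27 and 1.24 to 2.34, with a difference of 1.24 (SE 0.30, adjusted p = 0.005). For both the effect of hypoxia was larger at 48 h than on average before, but with reference-gene scaling neither difference passed (adjusted p = 0.0926 for FST and 0.0976 for HK2). PER3 (0.38, -0.15 and 0.56, then 1.37) and ESR1 (0.38, -0.073 and 0.29, then 1.08) had differences of 1.10 (SE 0.20, adjusted p = 0.000207) and 0.88 (SE 0.16, adjusted p = 0.000296). ACACA had 0.78, 0.50 and 0.94 and then 1.65, with a difference of 0.91 (SE 0.24, adjusted p = 0.0115). FGFRL1, CPT1A and SLC25A30 had differences of 0.44 (SE 0.091, adjusted p = 0.000913), 0.36 (SE 0.072, adjusted p = 0.000598) and 0.61 (SE 0.13, adjusted p = 0.00101). Of these 6 genes ACACA, FGFRL1 and CPT1A also lost the call with reference-gene scaling (adjusted p = 0.115, 0.173 and 0.310). EXFABP was the reverse case, with 3.60, 3.41 and 2.12 at the earlier times, 2.13 at 48 h and a difference of -0.91 (SE 0.18, adjusted p = 0.000449). Its hypoxia level was higher at 48 h than before, and its normoxia level had also climbed.

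In other genes an earlier effect was no longer detected, a late one appeared, or a fall was larger at 48 h than on average before. PPARGC1A, a coactivator of mitochondrial genes, had log2 changes of -0.83, -1.07 and -0.42 at 12, 24 and 36 h and of 0.031 at 48 h (adjusted p = 0.951), with a difference of 0.81 (SE 0.17, adjusted p = 0.00127). NPY, neuropeptide Y, had -1.43, -0.80 and 0.082 and then 0.33, with a difference of 1.04 (SE 0.22, adjusted p = 0.00127). Its receptor gene NPY2R fell at 48 h (log2 change -0.86, SE 0.15, adjusted p = 1.51e-05) and had a difference of -0.60 (SE 0.17, adjusted p = 0.0362). NPY2R was lower in hypoxia before 48 h too. Its means at 12, 24 and 36 h were 1824, 1939 and 2064 CPM in hypoxia and 2582, 2210 and 2204 CPM in normoxia. MYH1F had 0.21, 0.063 and -0.016 before and -0.86 at 48 h, with a difference of -0.94 (SE 0.20, adjusted p = 0.00127). BMP2 had -0.38, -0.34 and -0.86 and then -1.49, with a difference of -0.96 (SE 0.29, adjusted p = 0.0384). Both NPY2R and BMP2 were also called lower at an earlier time. Of the 29 genes called at 48 h and at no earlier time, 6 were called for this difference: CPT1A, ESR1, JAK1, MYH1F, SLC25A22 and SLC25A30. For the other 23 the 48 h effect was not shown to differ from the earlier ones. The calls for the difference of BMP2, EGR1, JAK1, MGLL, NPY2R, SLC25A22 and WNT10A were each lost without any one of 7 to 9 single libraries. With reference-gene scaling 8 of the 22 calls were made, and without the libraries above the gap none (28 genes at an unadjusted p under 0.05 in edgeR, and 0 called in DESeq2).

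**Figure D5:**
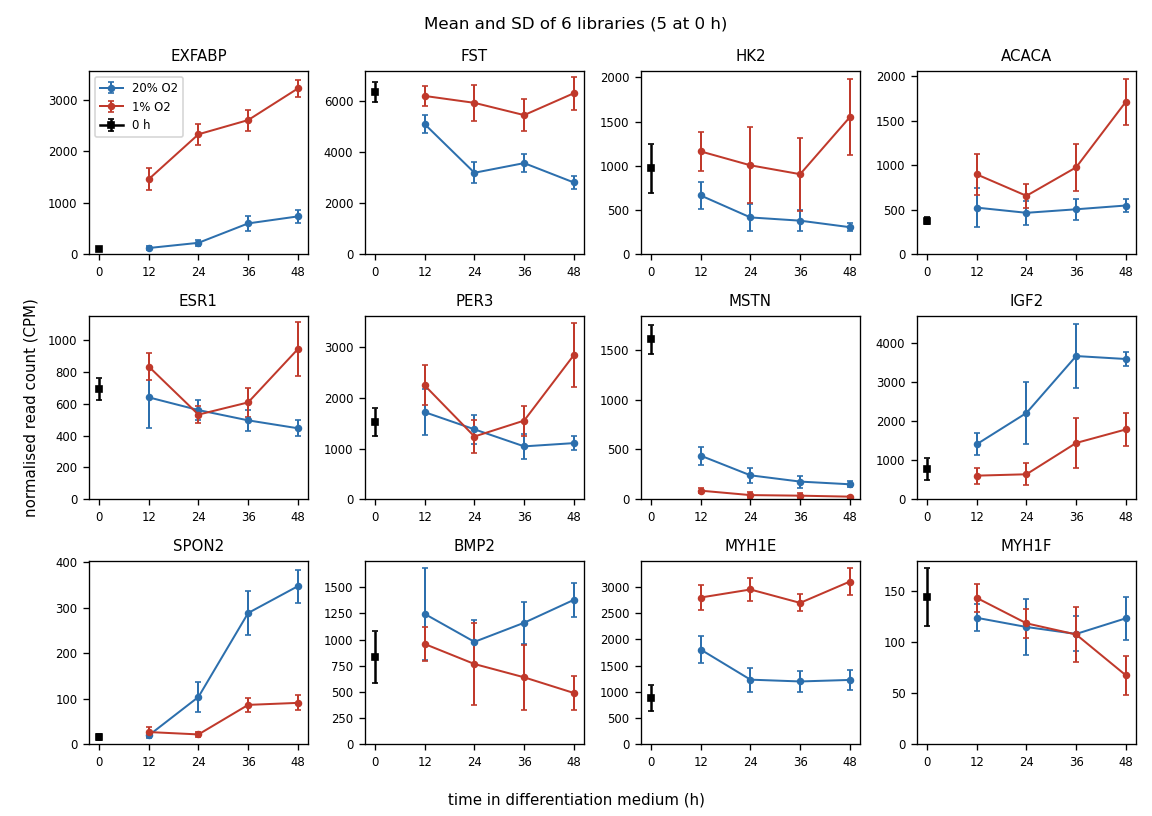
Normalised read count (CPM, vertical axes from 0) against time in hours for 12 genes; points are means and bars SDs of 6 libraries in 20% O2 (blue) or 1% O2 (red), and the black square is the mean of 5 libraries at 0 h. FST stays near its 0 h level in hypoxia and falls in normoxia, EXFABP climbs in both with hypoxia above, and MSTN falls in both with hypoxia below.

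Set against the 0 h cells, the 48 h levels in both oxygen conditions can be given side by side, and the 2 columns share the 5 libraries of 0 h. FST had a log2 change from 0 h of -1.18 in normoxia and -0.013 in hypoxia. For HK2 the values were -1.67 and 0.68. The hypoxia cells were thus near the 0 h level of FST and above that of HK2, and the normoxia cells below both. MSTN had -3.41 in normoxia and -5.94 in hypoxia. EXFABP had 2.72 and 4.85, and SPON2 4.43 and 2.50. These 3 moved the same way from 0 h in both conditions, by different amounts. IGF2 had 2.23 and 1.22, FABP1 3.89 and 2.48, and DPT 2.92 and 1.89. BMP2 had 0.72 in normoxia and -0.77 in hypoxia, with opposite signs, as did ENSGALG00000012061 with 1.72 and -0.89. PAX3 was below its 0 h level in both (-1.84 and -0.92), and HEY1 likewise (-3.02 and -2.17).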

How the data were processed

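The authors deposited raw read counts for 590 transcripts in 106 samples, per the file headers total counts. Primers were designed on galGal6, per the labels' protocols, and the build also stands in the submitters' processing notes; aligner and read counter: not given in the sources used here. In the 48 h columns 8 blank cells in 4 columns were read as 0 (1160 in 21 columns overall). The transcripts of 21 genes were summed to 569 genes, and technical replicates were summed (single totals at 48 h 100596 to 632362 reads; r of log2 CPM 0.963 to 0.993 between them). Value columns with no sample numbered 0. Of the gene names 522 matched a current RefSeq symbol and 4 an older one, and 31 are Ensembl identifiers.

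Counts were filtered with filterByExpr (minimum count 10, minimum total 15), scaled by TMM and tested by quasi-likelihood (glmQLFit and glmQLFTest) in edgeR 4.0.16 (limma 3.58.1, R 4.3.3). All 9 groups entered the fit, with 44 residual degrees of freedom and a common biological coefficient of variation of 26.0%. P-values were adjusted by Benjamini-Hochberg over the 453 tested genes. The SE was obtained as the log2 change over the root of its F value. The contrasts were hypoxia minus normoxia at 48 h, that effect minus the mean of the effects at 12, 24 and 36 h, and 48 h against 0 h in each oxygen level. The procedure was tested on simulated counts, drawn independently for each library. These held neither the gap nor an effect shared by a replicate number, so they cannot show how either acts on the calls. The score of 17 genes is their mean log2 CPM with a prior count of 2; they are the 17 genes with the highest within-group correlation with the mean of 6 of them.

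Named genes were the 15 highest and 15 lowest called log2 changes, the 6 smallest p-values in each direction for the difference from earlier times, a set of myogenic, growth factor, hypoxia and cell cycle genes, and the called members of each list, or the member with the largest change where none was called. The comparison, gene lists and rule were chosen with earlier results of these data known. Genes outside this rule (among them SFRP5, CDH5, the collagens and the remaining genes that differed between times) were named after their values were seen. Alternatives were DESeq2 1.42.0, scaling by library totals or 7 reference genes, leaving the filter off, using either technical replicate by itself, the replicate number as a block, a fit of the 48 h groups alone, leaving out each replicate number or 48 h library, leaving out the libraries above the gap, the side of the gap as a factor, and, added after the depths were seen, leaving out replicates 2 and 6. No molecular identifiers are mentioned in the labels, so reads cannot be taken as independent molecules.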

Additional observations from a re-analysis of the deposited data

Results flagged for a closer look

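In 8 of 188 tests of a gene in a group of 6 libraries, 1 library lay far from the other 5 (Dixon's test at the 95% level). Chance flags about 1 in 20 groups. All 8 were in replicates 2 or 6, the shallowest libraries of both groups at 48 h. In hypoxia replicate 2 the level was 84.9 CPM for EDNRB (others 49.2 to 59.1), 12.7 CPM for TNFRSF1B (others 0 to 4.19) and 4889 CPM for RRM2 (others 4285 to 4386). In hypoxia replicate 6 it was 289 CPM for MC5R (others 68.5 to 149) and 2939 CPM for PDK1 (others 3396 to 3623). In normoxia replicate 6 it was 33.6 CPM for MEF2D (others 6.58 to 14.6). In normoxia replicate 2 it was 1260 CPM for RBP4A (others 864 to 994) and 105 CPM for VWF (others 37.8 to 62.4).

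For 22 genes the interaction test of edgeR found that the hypoxia effect at 48 h differed from the mean of the effects at 12, 24 and 36 h. The differences on the log2 scale were positive for FST (0.57), PER3 (1.10), ESR1 (0.88), CPT1A (0.36), FGFRL1 (0.44), SLC25A30 (0.61), PPARGC1A (0.81), NPY (1.04), SESN1 (0.50), ELOVL4 (2.65), HK2 (1.24), ENSGALG00000025996 (1.05), ACACA (0.91), SLC25A22 (0.42), WNT10A (1.69), JAK1 (1.34) and MGLL (0.53). They were negative for EXFABP (-0.91), MYH1F (-0.94), NPY2R (-0.60), BMP2 (-0.96) and EGR1 (-0.27). Hypoxia means of EGR1 at 12, 24 and 36 h were 3694, 3307 and 2586 CPM. Those in normoxia were 2901, 3134 and 3828 CPM. At 48 h the EGR1 means were 2412 CPM in hypoxia and 3021 CPM in normoxia, so its fall was larger at 36 h. ELOVL4 had a median of 5.10 CPM in normoxia and 7.91 CPM in hypoxia at 48 h, so its difference rests on few reads. At 12, 24 and 36 h MGLL, a lipase that splits monoglycerides, had log2 changes of -0.24, -0.69 and -0.64, and at 48 h one of 0.0073 (adjusted p = 0.988).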

How the results depend on the processing

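The count of 101 genes called at 48 h was 98 with DESeq2, 96 with library totals, 79 with reference genes, 97 without the filter, 83 with technical replicate 1 alone, 83 with technical replicate 2 alone, 109 in a fit of the 48 h groups alone, 98 with the side of the gap as a factor and 93 without replicates 2 and 6. Leaving out a replicate number or a single library gave 82 to 102 genes, 50 to 59 of them higher and 32 to 43 lower. Without the libraries above the gap it was 22 (11 higher and 11 lower), from fewer samples, with 27 called by DESeq2. Of the 101 genes 96 were tested under all 29 other settings, and ACTN4, ALPL, CCL5, TNFRSF1B and WNT4 were not tested in at least 1 of those with a single technical replicate or the 48 h groups alone. None of the 101 changed sign in a setting that tested it. Of them 19 were called under all 29 and 56 under all but those of the gap, and 81 were called without each single library in turn. The count of 22 genes with a different effect at 48 h was 14 to 24 when a replicate or library was left out, 14 with technical replicate 1 alone, 8 with reference genes and 0 without the libraries above the gap (28 at an unadjusted p under 0.05 in edgeR, 0 by DESeq2). Leaving out these libraries also lowered the number of samples. The 2 were not separated, and the cause was not tested. For single genes named, 2468 values kept their call or lack of one, 242 lost the call and 6 gained it. No value with a call in either fit changed sign. Sign changes of genes called in neither fit were not counted.

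The labels do not say what a replicate number shares, so the main fit did not take the numbers to pair the libraries. Not every same-numbered pair of 48 h libraries had a correlation over 0.1, which does not show that pairing was absent. Same-numbered libraries had correlations of -0.24 to 0.49 in their deviations from the group means (median 0.25, against 0.014 for different numbers), 4 of 6 were over 0.1, and 3 of 6 hypoxia libraries correlated best with their own number. With the number as a replicate block 108 genes were called (59 higher, 49 lower), 100 of them shared with the 101. The numbers did share other properties across groups. Replicate 1 lay above the gap in 8 of 9 groups, the other numbers in 1 to 3, and at each of 12, 24, 36 and 48 h the same number had the lowest depth in both oxygen conditions.

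Depth limits the low genes: WNT4, CCL5, CCL20, WNT10A, ALPL and TNFRSF1B each had a 48 h library with no read. The panel was chosen by the study, no library gives cell numbers, and the groups differ in how many libraries lie above the gap, so this difference and oxygen cannot be fully told apart with 1 normoxia library below it.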

Other observations

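Of the genes known for the circadian clock, chosen here after their values were seen, PER3 rose with hypoxia at 48 h with a log2 change of 1.37, NR1D2 with one of 0.39 (adjusted p = 0.0319) and BHLHE40 with one of 0.41 in the edgeR fit. ARNTL, the other tested gene of this kind, had a log2 change of -0.051 (adjusted p = 0.679). NR1D2 lost the call without any one of 6 single libraries. It also lost it with library totals, reference-gene scaling, no filter, technical replicate 1 alone or the side of the gap as a factor. Of all tested genes 22.3% were called. Among other called genes outside the lists described, MAPK11, a p38 kinase, fell from 554 ± 118 to 275 ± 69.2 CPM (log2 change -1.02, SE 0.21, adjusted p = 0.000143). MDH2, the malate dehydrogenase of mitochondria, fell from 518 ± 32.6 to 307 ± 70.4 CPM (log2 change -0.75, SE 0.16, adjusted p = 0.000147). IL10RB, a subunit of the interleukin 10 receptor, rose from 2131 ± 123 to 2954 ± 504 CPM (log2 change 0.47, SE 0.10, adjusted p = 0.000106). All 3 were called in the same direction at 12, 24 and 36 h.

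Many genes lay within a narrow band of levels. Of the 453 tested genes 135 (29.8%) had a normoxia 48 h mean between 3000 and 6000 CPM and 18 were above 6000 CPM. Between 3000 and 6000 CPM 16 genes were called (11.9%), with a median absolute log2 change of 0.054. Between 300 and 3000 CPM 58 of 178 were called (32.6%), with a median of 0.24. Above 6000 CPM 0 of 18 were called in edgeR and in DESeq2, and 1 had an unadjusted p under 0.05. Of 10 ribosomal protein genes in the panel 9 had too few reads to be tested, with at most 10 reads in a 48 h library, and EEF1A1, an elongation factor that cells make in large amounts, had at most 4 reads. Why the levels of these amplicons were so distributed was not tested.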
